A study of Mus musculus with 21 samples.

Results

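The proteasome is the protease that degrades ubiquitin-tagged proteins in the cytosol and nucleus. Its barrel-shaped core particle is built of alpha and beta rings and holds the proteolytic sites, and a regulatory particle of a base, which unfolds substrates with ATPases, and a lid, which removes ubiquitin, caps it. Other activators can cap the core in place of the regulatory particle, and dedicated chaperones assemble core and base. In fibroblasts, as in other mammalian cells, the subunit genes are expressed throughout life and are raised together by the transcription factor NRF1 (gene Nfe2l1) when proteasome activity falls. The genes described here are the protein-coding genes whose symbols start with Psma to Psmg followed by a number, without the immunoproteasome subunits Psmb8, Psmb9 and Psmb10. They are 47 of the 41608 genes in the count table. They comprise 7 alpha and 7 beta ring subunits, 2 core subunits of single tissues, 6 base ATPases, 3 other base subunits, 8 lid subunits, 6 activator or inhibitor genes and 7 assembly chaperones. The remaining gene, Psmc3ip, matches by symbol alone: its product is a cofactor of meiotic recombination and no proteasome subunit.

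The series concerns HSF1, which drives the heat-shock response, and how it bears on the work of c-MYC, a transcription factor that drives growth, and on GCN5, a histone acetyltransferase. The cells are immortalized mouse embryonic fibroblasts (MEFs). RNA came from 4 groups of 3 libraries: siHsf1 LacZ, siControl LacZ, siHsf1 GCN5 and siControl GCN5. LacZ and GCN5 name lines that stably express LacZ, a bacterial enzyme used as a control, or V5-tagged GCN5, and siHsf1 and siControl name transfection for 2 days with 10 nM siRNA against Hsf1 or control siRNA. The labels do not give the promoter of either construct or whether a line is a single clone. They speak of triplicates without naming separate cultures, so p-values reflect only how far the labelled libraries scatter. Sites of c-MYC on DNA come from CUT&RUN (a nuclease tethered by an antibody releases the DNA at a bound protein) in Hsf1 CKO MEFs (7 days of 4-hydroxytamoxifen, which deletes Hsf1) and Hsf1 WT MEFs (the same cells with ethanol for 7 days). Each genotype has 2 labelled libraries and 1 deposited peak list, so no peak value has a replicate error, and the IgG control was made on a 1:1 mix of both genotypes. The siMyc libraries of the series and their siControl libraries are not analysed here.

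Libraries held 7224496 to 8162787 gene counts in the LacZ line and 3693554 to 4274852 in the GCN5 line, so depth and line cannot be told apart. Where a gene has no count, levels below 0.368 to 0.812 CPM (counts scaled to library depth) remain possible by counting error alone. Every comparison was fitted with edgeR's quasi-likelihood test under 2 scalings. TMM scaling sets most genes equal between libraries, and spike-in scaling uses ERCC RNA added to each RNA sample. The labels name different ERCC mixes for siHsf1 and siControl RNA, in which most transcripts differ in amount, and the scaling rests on 23 transcripts taken as equal in both. The data did not show this difference. In the LacZ line the log2 ratio of siHsf1 to siControl counts had a median of 0.46 (-0.08 to 0.60) over 8 of the 23 transcripts with at least 100 counts, and of 0.46 (0.18 to 1.01) over 30 other transcripts. Scaling by all ERCC transcripts gave the same number of members called in each comparison. The spike-in share varied within groups, from 0.177% to 0.356% in siHsf1 LacZ and from 0.142% to 0.239% in siControl LacZ libraries, and the common biological coefficient of variation was 0.274 with spike-in scaling and 0.089 with TMM scaling. Hsf1 stood at 47.8 to 57.6 TMM-scaled CPM in siHsf1 LacZ and 128 to 134 in siControl LacZ libraries, and in the GCN5 line at 67.9 to 74.5 CPM with siHsf1 and 121 to 138 CPM with siControl. Markers that define fibroblasts were high, and most of those of other cell types were low or at 0. Fibroblast markers summed to 9354 to 10807 CPM in siHsf1 LacZ and 6575 to 7285 CPM in siControl LacZ libraries, and in the GCN5 line to 8465 to 8656 CPM with siHsf1 and 8156 to 8333 CPM with siControl. Haematopoietic markers summed to 51.5 to 59.4 CPM in siHsf1 LacZ and 26.6 to 27.3 CPM in siControl LacZ libraries, and in the GCN5 line to 25.4 to 30.7 CPM with siHsf1 and 22.9 to 26.8 CPM with siControl. Most of that sum was Cd14 and Cd68, and 5 of the 10 genes, Adgre1, Itgam, Laptm5, Tyrobp and Cd3e, were at 0 in every library. Epithelial markers summed to 122 to 135 CPM in siHsf1 LacZ and 173 to 212 CPM in siControl LacZ libraries, and endothelial markers to at most 1.93 CPM in any library. The part of these markers in the results on proteasome genes was not tested.

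Of the 47 genes, 44 passed the filter on low counts. The 3 that did not are known from single tissues or as a copy: Psma8, an alpha subunit of the testis, and Psme2b, a copy of the activator gene Psme2, had 0 counts in all 12 libraries, and Psmb11, the beta subunit of the thymus, had 0 to 2. The other 44 spanned a wide range of levels per gene length. In FPKM (read fragments scaled by gene length and library depth, so that genes can be compared), their median was 101 in siHsf1 LacZ, 116 in siControl LacZ, 121 in siHsf1 GCN5 and 122 in siControl GCN5 cells. Psmb4, a structural beta subunit, was the highest in each group, at 366 FPKM in siHsf1 LacZ and 371 FPKM in siControl LacZ cells. By role, the median level in siHsf1 LacZ and siControl LacZ cells was 202 and 225 FPKM for the beta ring, 115 and 138 FPKM for the alpha ring, and 106 and 129 FPKM for the base ATPases. It was 95 and 103 FPKM for the lid and 23.1 and 25.3 FPKM for the assembly chaperones. The median of the chaperones was thus below that of each subunit class.

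**Figure D1:**
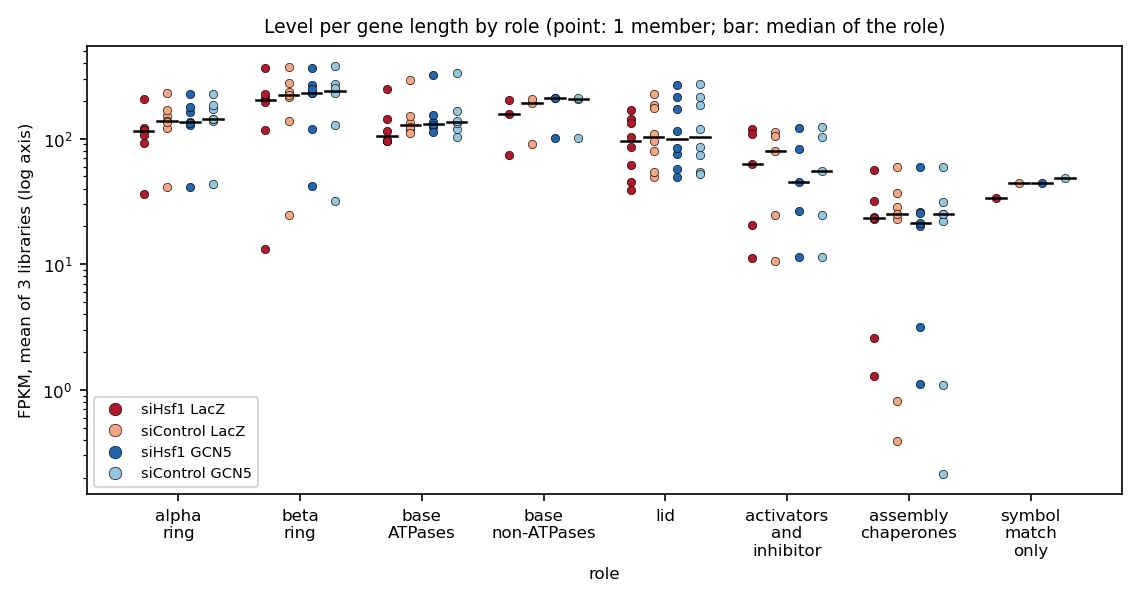
Level per gene length of the 44 tested members by role (FPKM, log axis; 1 point per member, mean of 3 libraries; black bars, median of the role). Beta ring genes reached 366 FPKM in siHsf1 LacZ and 371 FPKM in siControl LacZ cells, while assembly chaperones had a median of 23.1 and 25.3 FPKM in the same groups.

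The 47 genes together took 0.705% ± 0.031 of gene counts in siHsf1 LacZ, 0.803% ± 0.042 in siControl LacZ, 0.845% ± 0.0045 in siHsf1 GCN5 and 0.849% ± 0.024 in siControl GCN5 libraries (SD, n = 3 each). Libraries did not overlap between siHsf1 LacZ, at 0.676% to 0.738%, and siControl LacZ, at 0.776% to 0.851%. In bulk RNA, fewer cells of a type and less RNA per cell cannot be told apart.

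A set of 3 genes was counted erratically within groups and is set apart from what follows. Psmb6, a catalytic beta subunit, had 577, 20 and 16 counts in siHsf1 LacZ and 12, 715 and 526 in siControl LacZ replicates 1 to 3. In the GCN5 line it had 374, 357 and 364 counts with siHsf1 and 499, 242 and 5 with siControl. Low and high libraries thus occurred within 3 of the 4 groups. Psmd10, a chaperone of the base, had 4, 140 and 52 counts in siHsf1 LacZ and 3, 51 and 3 in siControl LacZ libraries. Psmg1, a chaperone of the alpha ring, had 51, 3 and 4 counts in siHsf1 LacZ and 5, 11 and 2 in siControl LacZ libraries. No comparison called any of these, and the cause of the spread was not tested.

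Knockdown of Hsf1 in the LacZ line addresses the effect of less HSF1 in cells without added GCN5. With TMM scaling 25 of the 44 tested genes fell in siHsf1 LacZ cells and 0 rose, against 19.5% lower and 21.1% higher among all tested genes (edgeR's quasi-likelihood test, adjusted p under 0.05). Their median log2 fold change was -0.23, and that of all tested genes was 0.02. Counted by library, 25 of 44 lay lower in every siHsf1 than in every siControl library (23.5% of all tested genes). These lack Psmb7 and Psmd13, which were called although libraries overlapped, and include Psmb1 and Psmg2, which were not called. With spike-in scaling the median was -0.60 for the members and -0.35 for all genes. Relative to all genes it was -0.25 with either scaling. The scalings differ by a factor per library, which shifts all genes nearly alike. This match thus follows from the method and is no separate support. Spike-in scaling called 1 member lower, Psme3, and 0 higher (6.03% and 0.993% of all tested genes), with 19 members at an unadjusted p under 0.05. Leaving out siHsf1 LacZ replicate 1 moved the spike-in count to 23 members, all lower. A spike-in fit with a block for the replicate number kept Psme3 and called 27 further members. DESeq2 called 25 members with its own size factors and 1 with spike-in size factors.

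**Figure D2:**
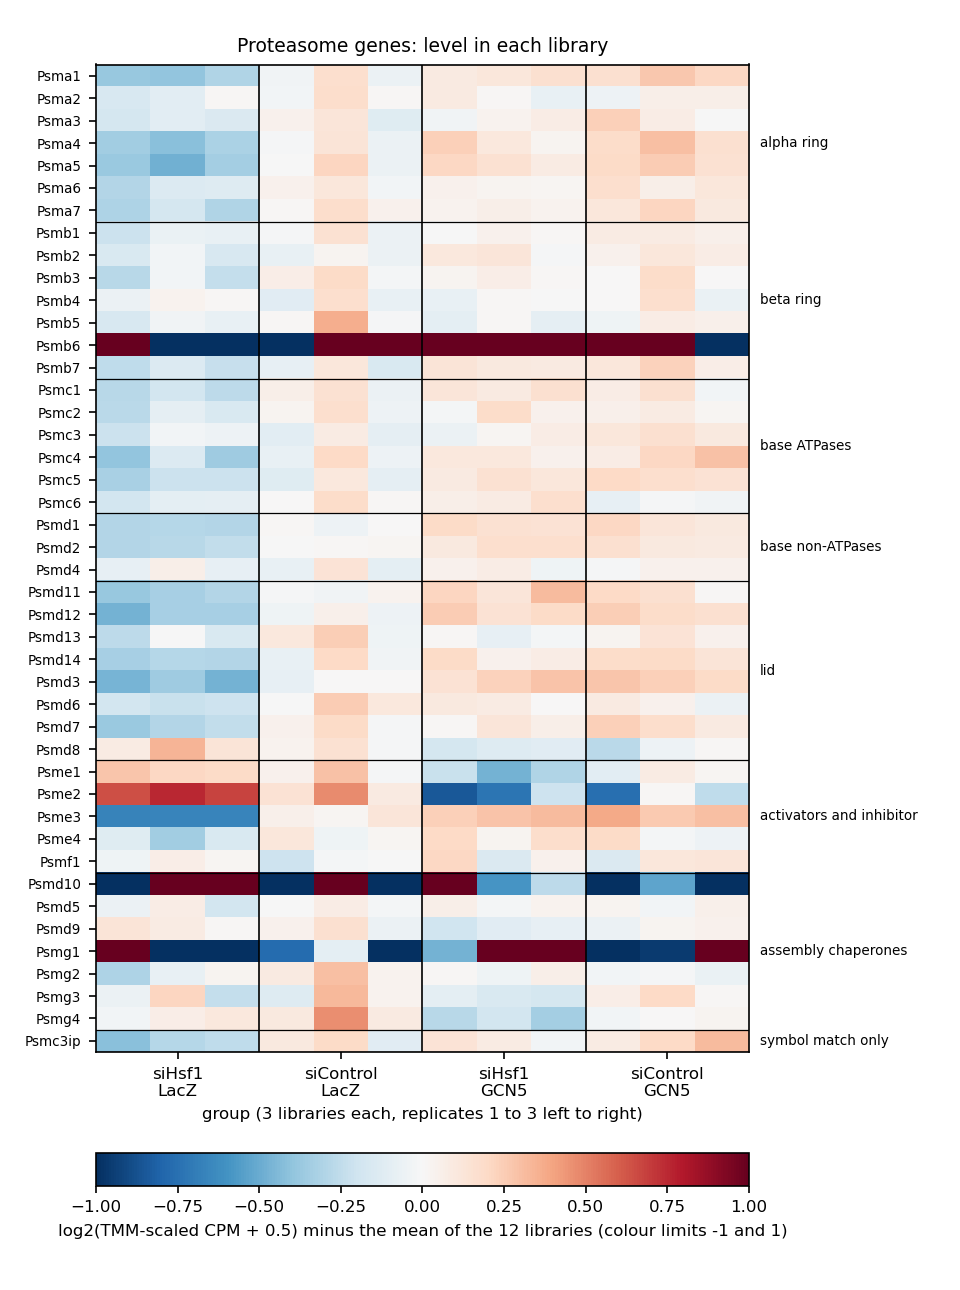
Level of the 44 tested members in each of the 12 libraries, as log2 TMM-scaled CPM minus the gene's mean over all libraries (colour limits -1 and 1; columns, replicates 1 to 3 of each group). The 3 siHsf1 LacZ columns are lower than the others for most ring, base and lid genes and highest for Psme2, and Psmb6, Psmd10 and Psmg1 vary within groups.

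Psme3 encodes an activator that caps the core in the nucleus and promotes degradation of proteins without ubiquitin. Its log2 fold change was the farthest from 0 among the members called. It stood at 177, 178 and 178 TMM-scaled CPM in siHsf1 LacZ replicates 1 to 3, against 291, 285 and 306.5 CPM in siControl LacZ replicates 1 to 3. The siHsf1 libraries were nearly equal and all below the siControl libraries. The log2 fold change was -0.73 ± 0.06 (SE, n = 3 each; edgeR adjusted p = 2.5e-10) with TMM scaling and, with spike-in scaling, -1.10 ± 0.32 SE (edgeR adjusted p = 0.018). On the spike-in scale its level was 231, 119 and 168 CPM in siHsf1 LacZ and 471, 268 and 371 CPM in siControl LacZ libraries, and this call was lost when siHsf1 LacZ replicate 2 or 3 or siControl LacZ replicate 1 or 3 was left out (highest edgeR adjusted p = 0.16).

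The other activator and inhibitor genes did not share a direction with TMM scaling. Psme4, a large activator known from spermatogenesis and DNA repair, fell with TMM scaling, at 156, 133 and 153 CPM in siHsf1 LacZ and 183, 165 and 172 CPM in siControl LacZ libraries (log2 fold change -0.24 ± 0.07 SE, edgeR adjusted p = 0.014). Without siHsf1 LacZ replicate 2 or siControl LacZ replicate 1 the call on Psme4 was lost (highest edgeR adjusted p = 0.086), and the gene overlaps Erlec1. Psme1 and Psme2 encode the subunits of the interferon-inducible activator of the cytosol. Psme2 stood at 152, 165 and 156 CPM in siHsf1 LacZ and 107, 136 and 104 CPM in siControl LacZ libraries, and it was the 1 member whose siHsf1 libraries all lay above the siControl libraries (26.4% of all tested genes did so). Its log2 fold change of 0.45 ± 0.20 SE did not pass the test (edgeR adjusted p = 0.10), nor did 0.09 ± 0.32 SE with spike-in scaling, and reads of its copy Psme2b could be shared with it. Psme1 stood at 124.5, 119 and 117 CPM in siHsf1 LacZ and 106, 126 and 102 CPM in siControl LacZ libraries, which overlap. Psmf1, an inhibitor of the core, had a log2 fold change of 0.09 ± 0.10 SE (edgeR adjusted p = 0.50). The values of Psme1 and Psmf1 were positive with TMM scaling and negative with spike-in scaling (-0.23 and -0.28).

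Of the alpha ring, whose subunits gate the core, 5 of 7 genes fell with TMM scaling (19.5% of all tested genes). The median log2 fold change of the 7 was -0.34. Psma5 stood at 155, 143 and 157 CPM in siHsf1 LacZ and 199, 231 and 192 CPM in siControl LacZ libraries (log2 fold change -0.45 ± 0.07 SE, edgeR adjusted p = 1e-05). Psma1 stood at 117, 115.5 and 123 CPM in siHsf1 LacZ and 148, 171 and 146 CPM in siControl LacZ libraries. Psma4 stood at 145, 139 and 149 CPM in siHsf1 LacZ and 184, 202 and 178 CPM in siControl LacZ libraries. For each of these 3 genes the groups did not overlap. Psma6 and Psma7 also fell, by 0.23 and 0.34 on the log2 scale, and Psma2 and Psma3 did not pass the test.

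Of the beta ring, which holds the proteolytic sites, 3 of 7 genes fell (19.5% of all tested genes), with a median of -0.17. Psmb3, a structural subunit, stood at 160.3, 191 and 165 CPM in siHsf1 LacZ and 204, 221 and 192 CPM in siControl LacZ libraries (log2 fold change -0.26 ± 0.07 SE, edgeR adjusted p = 0.0056). Psmb5, a catalytic subunit, stood at 99.4, 108 and 105 CPM in siHsf1 LacZ and 112, 143 and 110.0 CPM in siControl LacZ libraries. The catalytic subunit Psmb7 stood at 208, 225 and 211 CPM in siHsf1 LacZ and 233, 267 and 222 CPM in siControl LacZ libraries, which overlap. The edgeR adjusted p was 0.034 for Psmb5 and 0.048 for Psmb7, and both calls were lost when siHsf1 LacZ replicate 1 or 3 or siControl LacZ replicate 2 was left out (highest edgeR adjusted p = 0.32 and 0.26). That on Psmb7 was also lost without siHsf1 GCN5 replicate 1 or 3 or siControl GCN5 replicate 1. Psmb4, the most abundant member, stood at 343, 367 and 359.7 CPM in siHsf1 LacZ and 331, 402 and 339 CPM in siControl LacZ libraries, a log2 fold change of 0.00 ± 0.07 SE.

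Of the 6 base ATPases, 5 fell (19.5% of all tested genes), with a median of -0.22. Psmc1 stood at 144, 155 and 146 CPM in siHsf1 LacZ and 183, 194 and 168 CPM in siControl LacZ libraries (log2 fold change -0.29 ± 0.07 SE, edgeR adjusted p = 0.00087). Psmc4 stood at 134, 159.7 and 137 CPM in siHsf1 LacZ and 167, 203 and 169.95 CPM in siControl LacZ libraries. Psmc5 stood at 307, 332 and 332 CPM in siHsf1 LacZ and 355, 415 and 362 CPM in siControl LacZ libraries. None of these pairs of groups overlapped, and Psmc3 alone among the ATPases did not pass the test. The calls on Psmc2 and Psmc6 were lost without siHsf1 LacZ replicate 1 or siControl LacZ replicate 2 (highest edgeR adjusted p = 0.079 and 0.094). Of the other base subunits, the scaffolds Psmd1 and Psmd2 fell. Psmd2 stood at 487, 492 and 501 CPM in siHsf1 LacZ and 595, 599 and 603 CPM in siControl LacZ libraries (log2 fold change -0.28 ± 0.05 SE, edgeR adjusted p = 8.1e-05). Psmd1 stood at 246, 248 and 247 CPM in siHsf1 LacZ and 305, 291 and 303 CPM in siControl LacZ libraries. Psmd4, a ubiquitin receptor, overlapped between groups, at 276, 303 and 276 CPM in siHsf1 LacZ and 277, 320.2 and 272 CPM in siControl LacZ libraries.

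Of the 8 lid subunits, 7 fell (19.5% of all tested genes), with a median of -0.33. Psmd3, a structural lid subunit, stood at 366, 396 and 363 CPM in siHsf1 LacZ and 478, 506 and 505 CPM in siControl LacZ libraries (log2 fold change -0.40 ± 0.06 SE, edgeR adjusted p = 2.8e-06). Psmd12 stood at 239, 263 and 263 CPM in siHsf1 LacZ and 321, 341 and 318.5 CPM in siControl LacZ libraries. Psmd7 stood at 209, 219.9 and 228 CPM in siHsf1 LacZ and 278, 309 and 267 CPM in siControl LacZ libraries. In each case all siHsf1 libraries were lower than all siControl libraries. Psmd14, the deubiquitinase of the lid, fell by 0.34 on the log2 scale (edgeR adjusted p = 0.00039). Psmd13 (-0.24) was no longer called without siHsf1 LacZ replicate 1 or 3 or siControl LacZ replicate 2 (highest edgeR adjusted p = 0.11). Psmd8 was the lid gene with a positive value, 0.13 ± 0.08 SE with TMM scaling and -0.26 ± 0.32 SE with spike-in scaling, and it passed neither test.

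Of the 7 assembly chaperones, 0 were called in either direction by edgeR with either scaling. Among all tested genes 19.5% fell and 21.1% rose with TMM scaling, and 6.03% and 0.993% with spike-in scaling. The 7 include the erratically counted Psmd10 and Psmg1, and whether chaperones differ from subunits was not tested. Psmg2 stood at 22.3, 26.3 and 28.4 CPM in siHsf1 LacZ and 29.7, 34.3 and 28.6 CPM in siControl LacZ libraries (log2 fold change -0.26 ± 0.11 SE, edgeR adjusted p = 0.054). Psmg4 stood at 17.2, 18.5 and 19.02 CPM in siHsf1 LacZ and 18.8, 24.5 and 18.8 CPM in siControl LacZ libraries (log2 fold change -0.18 ± 0.12 SE, edgeR adjusted p = 0.24). Psmd5 and Psmd9, chaperones of the base, had more counts than Psmg2 and Psmg4 and log2 fold changes near 0, of -0.07 ± 0.07 SE (edgeR adjusted p = 0.42) and 0.03 ± 0.08 SE (edgeR adjusted p = 0.83). Their values on the spike-in scale were -0.45 and -0.33. Of the chaperones, 1, Psmg2, had an unadjusted p under 0.05 with either scaling. Psmc3ip, the gene that matches by symbol alone, fell too, at 32.1, 35.4 and 36.1 CPM in siHsf1 LacZ and 46.1, 49.2 and 39.95 CPM in siControl LacZ libraries (edgeR adjusted p = 0.0024). It overlaps the gene Mlx, and whether the counting used strand is not given in the sources used here.

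**Figure D3:**
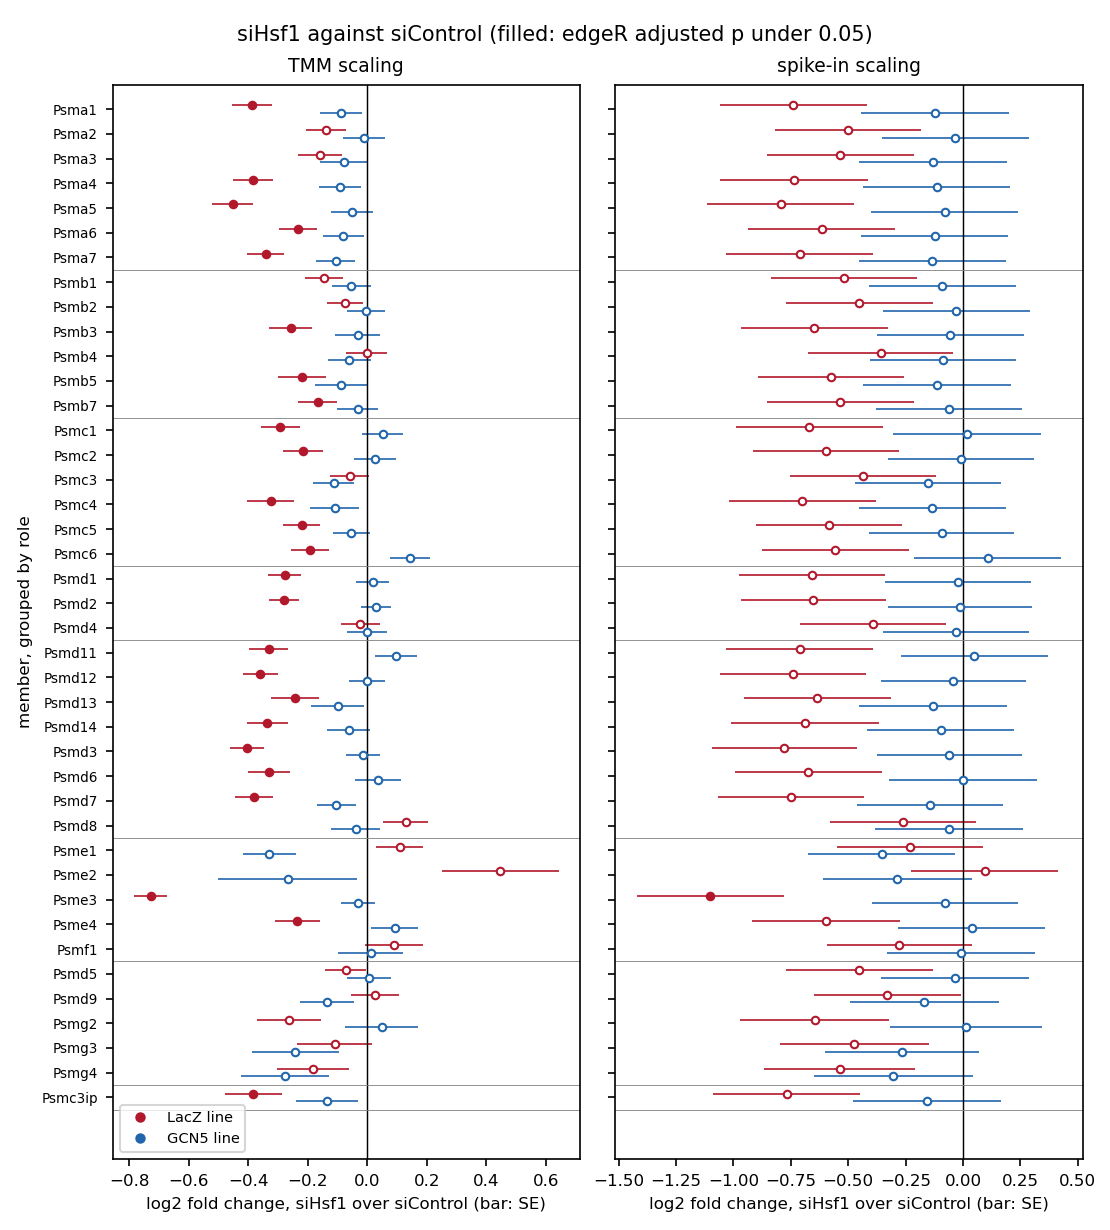
Log2 fold change of siHsf1 over siControl with its SE in the LacZ line (red) and the GCN5 line (blue), with TMM scaling on the left and spike-in scaling on the right, for 41 of the 44 tested members (Psmb6, Psmd10 and Psmg1, with SE above 1, are not drawn). Filled points passed the edgeR test: 25 in the LacZ line and 0 in the GCN5 line with TMM scaling, and Psme3 in the LacZ line with spike-in scaling.

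Knockdown of Hsf1 in the GCN5 line asks the same where V5-GCN5 is expressed. By the TMM-scaled values given above, more Hsf1 transcript was left in siHsf1 GCN5 than in siHsf1 LacZ libraries, so the knockdowns were not equal. Here 0 of the 44 genes were called by edgeR with either scaling, and DESeq2 also called 0 (with its own size factors, of the 35 members that it gave an adjusted p). Among all tested genes 0.0656% rose and 0.0985% fell with TMM scaling (0.0328% and 0.00821% with spike-in scaling), so the count of 0 stands near the background. At an unadjusted p under 0.05 there were 2 members with TMM scaling and 0 with spike-in scaling. The median log2 fold change of the members was -0.04 with TMM scaling, and that of all genes was 0.00. Psme3 stood at 333, 343 and 350.2 CPM in siHsf1 GCN5 and 366, 337 and 346 CPM in siControl GCN5 libraries, which overlap (log2 fold change -0.03 ± 0.06 SE, edgeR adjusted p = 0.89). Psmd3 stood at 559, 592 and 616 CPM in siHsf1 GCN5 and 613, 595 and 578 CPM in siControl GCN5 libraries. Psma5 stood at 230.3, 222 and 212 CPM in siHsf1 GCN5 and 228, 238 and 221 CPM in siControl GCN5 libraries. Both pairs overlap as well. Counted by library, 9 of 44 members lay lower in every siHsf1 than in every siControl library (9.73% of all tested genes), namely Psma6, Psma7, Psmb1, Psmc3, Psmd9, Psmd13, Psme1, Psmg3 and Psmg4, and Psmc6 lay higher (9.13%). Psma1 stood at 161, 165 and 170.2 CPM in siHsf1 GCN5 libraries, against 169, 183 and 175 CPM in siControl GCN5 libraries. Psmd7 stood at 272, 294 and 281 CPM in siHsf1 GCN5 libraries, against 318, 306 and 287 CPM in siControl GCN5 libraries. Psmc1 stood at 191, 186 and 195 CPM in siHsf1 GCN5 libraries, against 184.5, 195 and 172 CPM in siControl GCN5 libraries. These pairs overlap too.

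Libraries of Psmd2, Psmd12 and Psmd11 also overlapped between the GCN5 groups. Psmd2 stood at 639, 671 and 668 CPM in siHsf1 GCN5 and 667, 637 and 634 CPM in siControl GCN5 libraries. Psmd12 stood at 394, 365 and 377 CPM in siHsf1 GCN5 and 393, 375 and 369 CPM in siControl GCN5 libraries. Psmd11, a lid subunit that joins lid and base, stood at 174, 162 and 186 CPM in siHsf1 GCN5 and 171, 167 and 151 CPM in siControl GCN5 libraries. In the LacZ line Psmd11 stood at 114, 118 and 122 CPM with siHsf1 and 148, 146 and 153 CPM with siControl, without overlap. Psme1 had the lowest unadjusted p and did not overlap, at 88.1, 74.0 and 83.1 CPM in siHsf1 GCN5 and 95.2, 109 and 104 CPM in siControl GCN5 libraries, and its log2 fold change of -0.33 ± 0.09 SE did not pass the test (edgeR adjusted p = 0.17).

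The difference between the lines in the response to siHsf1 was tested as an interaction, in which a positive value means a higher change in the GCN5 line. With TMM scaling 14 of the 44 genes had a positive and 1 a negative interaction (11.0% and 11.0% of all tested genes). Psme3 had a log2 interaction of 0.70 ± 0.08 SE (edgeR adjusted p = 7.1e-07), Psmd3 of 0.39 ± 0.08 (edgeR adjusted p = 0.00086) and Psmd11 of 0.43 ± 0.10 (edgeR adjusted p = 0.002). By role these were 3 alpha ring genes, 2 base ATPases, 2 scaffolds of the base, 5 lid genes, Psme3 and Psme4, and 0 beta ring genes or chaperones. Psme1 had the negative value (-0.44 ± 0.12 SE, edgeR adjusted p = 0.0095), which was lost without siHsf1 GCN5 replicate 2 (edgeR adjusted p = 0.057). The interactions of Psma1, Psma4, Psmd7 and Psme4 were each lost in 3 to 6 of the 12 fits with 1 library left out, the highest edgeR adjusted p being 0.12. With spike-in scaling 0 of 44 genes were called by edgeR or by DESeq2 (0.172% of all genes higher and 0.222% lower), and 1 had an unadjusted p under 0.05. The interaction shares its libraries with the other comparisons and is no separate evidence for them. The Hsf1 transcript left after siHsf1 also differed between the lines, and its part in the interaction was not tested.

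**Figure D4:**
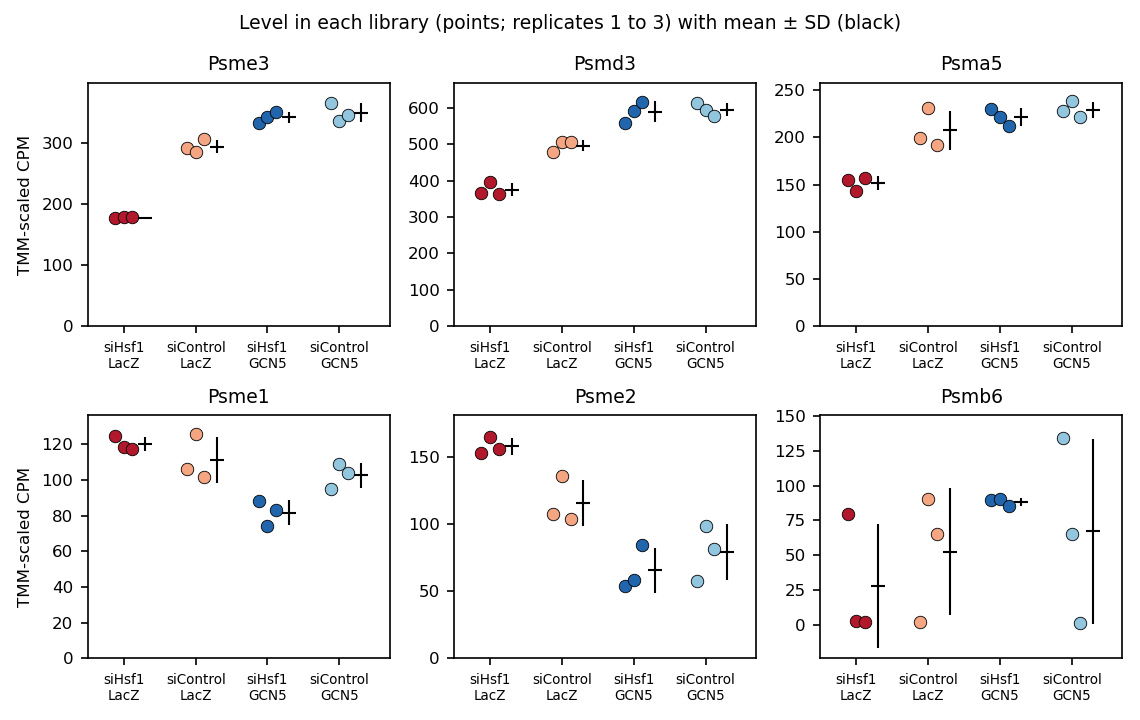
TMM-scaled CPM of 6 members in each library (points, replicates 1 to 3; black, mean ± SD of 3). Psme3, Psmd3 and Psma5 are lowest in siHsf1 LacZ libraries, at 177 to 178, 363 to 396 and 143 to 157 CPM. Psme2 is lowest in both GCN5 groups and Psme1 in siHsf1 GCN5 libraries, while its siControl libraries overlap between the lines. Psmb6 has libraries near 0 in 3 groups.

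The lines themselves were compared under each siRNA, with siHsf1 LacZ or siControl LacZ libraries as the base. Under siControl and TMM scaling 4 genes were higher in GCN5 cells and 0 lower (5.46% and 4.15% of all tested genes). The 4 were Psmd3 (log2 fold change 0.26 ± 0.06 SE, edgeR adjusted p = 0.0028), Psme3 (0.25 ± 0.06, 0.0045), Psmd12 (0.21 ± 0.06, 0.022) and Psmc5 (0.20 ± 0.06, 0.037). With spike-in scaling each of the 4 had a negative value that was not called, -0.13 for Psmd3, -0.14 for Psme3, -0.17 for Psmd12 and -0.17 for Psmc5. Psmc5 stood at 443, 433 and 426 CPM in siControl GCN5 libraries, against 355, 415 and 362 CPM in siControl LacZ libraries. Next in order, Psmd1 stood at 349.85, 329 and 323 CPM in siControl GCN5 libraries, against 305, 291 and 303 CPM in siControl LacZ libraries. Psma4 stood at 211, 227 and 207 CPM in siControl GCN5 libraries, against 184, 202 and 178 CPM in siControl LacZ libraries. Neither Psmd1 nor Psma4 passed the test (edgeR adjusted p = 0.075 and 0.081). Leaving out siControl LacZ replicate 2 raised the count of calls to 11. With spike-in scaling 0 were called by edgeR and 1 by DESeq2 (0.542% of all genes higher and 0.960% lower by edgeR), with 1 at an unadjusted p under 0.05. The sign of the median flipped with the scaling, 0.07 with TMM and -0.32 with spike-in scaling. Relative to all genes it was 0.07 and 0.08, a near match that follows from the method, since a change of scaling shifts all genes nearly alike.

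Under siHsf1 and TMM scaling 24 genes were higher and 3 lower in GCN5 than in LacZ cells (22.2% and 22.6% of all tested genes). Psme3 was higher by 0.95 ± 0.06 SE on the log2 scale (edgeR adjusted p = 2.3e-12). The 3 lower genes were Psme2, Psme1 and Psmd8. Psme2 stood at 53.7, 58.4 and 84.5 CPM in siHsf1 GCN5 and 152, 165 and 156 CPM in siHsf1 LacZ libraries, a log2 fold change of -1.26 ± 0.21 SE (edgeR adjusted p = 0.0013). On the spike-in scale Psme2 was the 1 gene called, at -1.35 ± 0.33 SE (edgeR adjusted p = 0.0017), and 0 were higher (3.62% of all genes lower and 1.82% higher). In siControl GCN5 libraries Psme2 stood at 57.5, 98.3 and 81.5 CPM. Its level in the GCN5 line was thus below that of each LacZ library, whichever siRNA was used.

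Genes that work with the proteasome outside the symbol pattern were set beside the members. Nfe2l1, which encodes NRF1, rose in siHsf1 LacZ cells with TMM scaling, at 440.5, 473 and 437 CPM in siHsf1 LacZ and 324, 317 and 335 CPM in siControl LacZ libraries (log2 fold change 0.47 ± 0.06 SE at edgeR adjusted p = 5.8e-07). Its value on the spike-in scale was 0.08 ± 0.32 SE (edgeR adjusted p = 0.89). The NRF1 gene was thus higher in share of RNA where most of the subunit genes were lower. In the GCN5 line Nfe2l1 stood at 309, 318 and 331 CPM with siHsf1 and 299, 314 and 339.6 CPM with siControl. Of the 10 listed genes of the NRF1 pathway, Nfe2l1 included, 3 rose and 2 fell in the LacZ line with TMM scaling, against 21.1% and 19.5% of all tested genes, so the counts are near the background. Mafg, a partner of NRF1 on DNA, and Fbxw7, a ubiquitin ligase subunit, rose, and Nfe2l2, the related factor NRF2, and Mafk fell.

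Of 12 proteasome partners, 4 fell and 0 rose in siHsf1 LacZ cells with TMM scaling (19.5% and 21.1% of all tested genes). Uchl5 and Usp14, deubiquitinases that bind the regulatory particle, fell by 0.42 and 0.27 on the log2 scale, and Ube3c, a ubiquitin ligase of the proteasome, and AI314180, which encodes the proteasome adaptor ECM29, fell by 0.25 and 0.17. Pomp, the maturation chaperone of the core, Adrm1, a ubiquitin receptor, and Shfm1, the smallest lid subunit, did not pass the test. Of 12 genes of shuttle factors, the segregase p97 and its cofactors, 3 fell (Vcp by 0.34, Rad23b by 0.28 and Ubqln1 by 0.22). The 2 that rose were Faf2 (by 0.21) and Faf1 (by 0.21), so these counts are near the shares of all tested genes. With spike-in scaling none of the NRF1, partner or shuttle genes named here was called, and the values of Mafg, Faf1 and Faf2 were negative. Of the immunoproteasome genes, Psmb8 and Psmb9 did not pass the filter, and Psmb10 stood at 77.5, 85.7 and 87.9 CPM in siHsf1 LacZ and 62.7, 77.0 and 64.4 CPM in siControl LacZ libraries. Its log2 fold change was 0.30 ± 0.09 SE (edgeR adjusted p = 0.0073) with TMM scaling and, with spike-in scaling, -0.06 ± 0.32 SE (edgeR adjusted p = 0.92). In the GCN5 line none of the genes named here was called by edgeR.

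Peaks of c-MYC lay within 1000 bp of the start of 15 of the 47 genes in the Hsf1 CKO list and of 36 in the Hsf1 WT list. Among the tested members these were 34.1% and 77.3%, near the 35.1% and 77.2% of all tested genes, so the members did not stand out by the presence of a peak. The lists differ in length, with 6386 peaks in CKO and 220037 in WT, and a gene that is in the WT list alone is not shown to have lost binding. Peaks of both genotypes overlapped at 14 genes, 22 had a WT peak alone, Psmd10 had a CKO peak alone, and 10 had neither. The 10 were Psma2, Psma6, Psma8, Psmb6, Psmc1, Psmc3, Psmc6, Psmd6, Psme1 and Psmf1. By role, a CKO peak was listed at 3 of 7 alpha ring genes, 1 of 7 beta ring genes, 2 of 6 base ATPases, 3 of 8 lid genes and 4 of 7 chaperones. At 8 of the 36 genes with a WT peak the peak also held the start of another coding gene.

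Peak height set a few members apart within each list. Height is the authors' maximal coverage in a peak, and how it was scaled between the lists is not given in the sources used here, so it is read within a list. The peak at Psme3 had the largest height of all 6386 peaks in the CKO list, at 0.0346, and rank 9 of 220037 in the WT list, at 0.0424. Psmc5 followed at rank 11 in the CKO list (0.0227) and rank 39 in the WT list (0.0301), and that peak also held the start of Ftsj3, an rRNA methyltransferase gene. Both Psme3 and Psmc5 lie on chromosome 11. There 53.1% of tested genes had a CKO peak and 92% a WT peak, against 35.1% and 77.2% of all tested genes. The part of the chromosome in peak height was not tested. Psmg4 had rank 244 in the CKO list (0.0105) and rank 250 in the WT list (0.0178). The medians of all peaks were 0.00361 in the CKO list and 0.00411 in the WT list. The other members were closer to the bulk, with Psmd5 next in the WT list at 0.00958. The gene with the highest c-MYC peak, Psme3, was also the member that fell most in siHsf1 LacZ cells, but Psmc5 fell by 0.22 and Psmg4 did not pass the test. With TMM scaling 4 of the 10 tested members without a WT peak fell, 12 of the 20 with a WT peak at or below the median height at tested gene starts, and 9 of the 14 with one above it. The shares of all tested genes that fell in these classes were 14.6%, 16.2% and 26.6%.

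**Figure D5:**
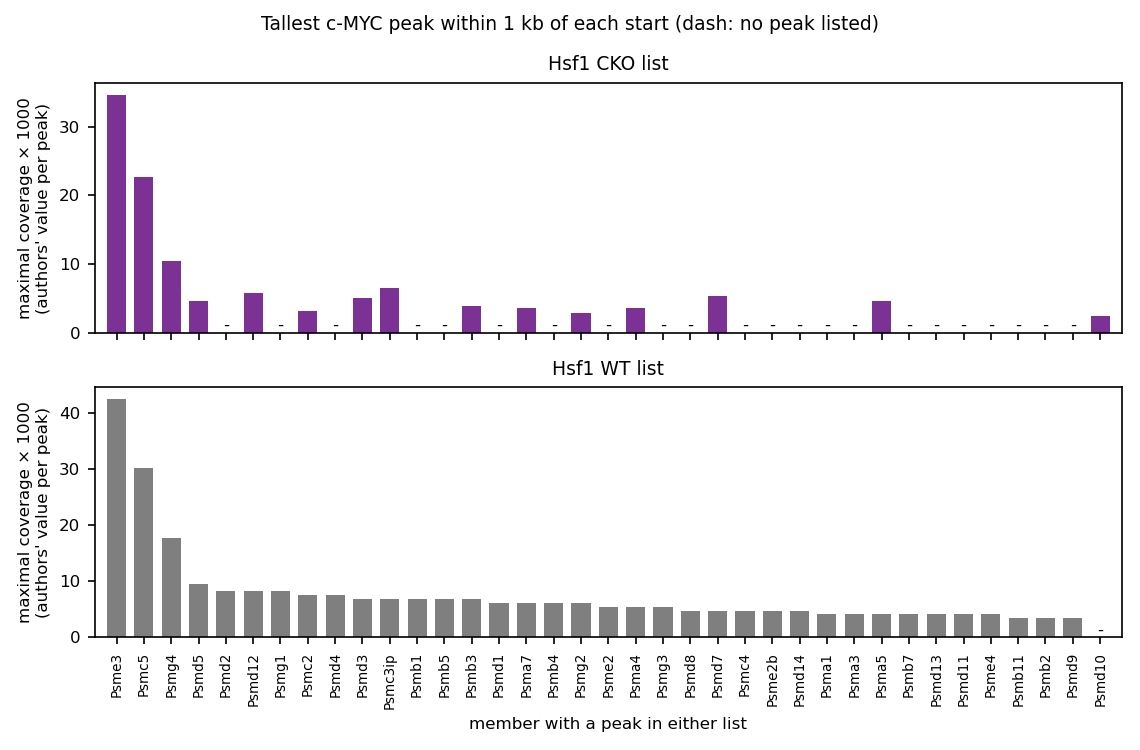
Maximal coverage (times 1000) of the tallest c-MYC peak within 1 kb of the start of each member that has one, with the Hsf1 CKO list above and the Hsf1 WT list below (dash, no peak listed; 1 list per genotype, no replicates). Psme3 is the tallest in both, at 34.6 in CKO and 42.4 in WT, followed by Psmc5 and Psmg4.

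The transcript of Myc itself stood at 99.4, 89.4 and 88.1 TMM-scaled CPM in siHsf1 LacZ and 130.3, 142 and 147 CPM in siControl LacZ libraries, and in the GCN5 line at 158, 144 and 139 CPM with siHsf1 and 129, 108 and 125 CPM with siControl. Kat2a, the mouse gene of GCN5, stood at 125, 117.5 and 130.1 CPM in siHsf1 LacZ and 215, 215 and 219.8 CPM in siControl LacZ libraries. With this scaling both were lower in siHsf1 LacZ libraries than in each library of the other groups. Psme3 shared this pattern, as did Psmd3, Psma5, Psmd2, Psmd12 and further members. The share of all tested genes with this pattern was not computed. The part of Myc and Kat2a in the results on proteasome genes was not tested.

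The promoters bear on these peaks, because c-MYC binds the E-box CACGTG. RefSeq windows of 250 bases before and 50 after the start (GRCm38.p6) were used for 39 of the 47 genes, in 42 windows. Psmg2 was left out of these by choice, while windows on its chromosome were kept among all genes. The member and all-gene shares of each motif thus come from sets built by different rules. The E-box lay in 3 of the 39 genes, Psme3, Psma4 and Psmd9, which is 7.69% of these genes against 8.09% of all genes with a window. The 3 are shown with the E-box in capitals, and the window of Psmc5, the next highest peak, is shown because it holds none. The windows are Psme3 at chr11:101315963-101316262, Psma4 at chr9:54950609-54950908, Psmd9 at chr5:123227940-123228239 and Psmc5 at chr11:106255935-106256234, all on the plus strand and written 5′ to 3′.
Psme3: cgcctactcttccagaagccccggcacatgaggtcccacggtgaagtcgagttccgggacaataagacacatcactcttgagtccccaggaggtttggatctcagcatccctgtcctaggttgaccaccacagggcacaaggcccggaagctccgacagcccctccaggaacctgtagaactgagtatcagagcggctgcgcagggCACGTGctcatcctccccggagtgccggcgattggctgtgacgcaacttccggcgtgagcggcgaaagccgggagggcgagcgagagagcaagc
Psma4: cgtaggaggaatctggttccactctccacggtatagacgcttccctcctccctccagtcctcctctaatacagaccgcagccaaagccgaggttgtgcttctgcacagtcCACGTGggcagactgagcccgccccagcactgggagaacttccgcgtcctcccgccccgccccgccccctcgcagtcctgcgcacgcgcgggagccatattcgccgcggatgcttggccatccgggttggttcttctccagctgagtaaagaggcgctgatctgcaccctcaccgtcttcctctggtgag
Psmd9: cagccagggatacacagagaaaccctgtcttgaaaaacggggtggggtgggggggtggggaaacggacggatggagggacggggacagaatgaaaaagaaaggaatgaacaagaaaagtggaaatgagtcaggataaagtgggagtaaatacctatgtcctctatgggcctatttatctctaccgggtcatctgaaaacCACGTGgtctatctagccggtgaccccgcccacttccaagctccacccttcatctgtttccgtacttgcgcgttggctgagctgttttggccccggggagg
Psmc5: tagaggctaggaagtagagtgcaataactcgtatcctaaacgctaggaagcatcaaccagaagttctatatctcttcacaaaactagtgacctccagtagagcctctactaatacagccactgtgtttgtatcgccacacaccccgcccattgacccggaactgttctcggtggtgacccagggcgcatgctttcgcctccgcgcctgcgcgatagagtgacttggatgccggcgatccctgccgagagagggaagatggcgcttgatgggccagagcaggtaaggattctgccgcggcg
The E-box of Psme3 (chromosome 11, 101316169 to 101316174) lies 82 bases before the gene start of the count table, inside both the CKO and the WT peak. It is outside the stretch of maximal coverage, which ran from 208 to 107 bases before the start in CKO and from 222 to 170 bases before it in WT. The E-box of Psma4, 97 bases before the start, lies inside the CKO peak and outside the WT peak, which began 38 bases before the start. The E-box of Psmd9, 51 bases before the start, lies in neither list's peak. At Psmc5 the maximal stretch ran from 297 to 146 bases before the start in CKO and from 225 to 144 bases in WT, within or next to a window without CACGTG. A match is a description of letters and does not show a bound site.

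Other motifs were counted on both strands in the same windows. All genes are here the 27025 genes with a window, more than the 12187 tested, so they include genes that did not pass the filter. Shares among tested genes alone were not computed, so a higher share is not shown to be particular to the members. The variant E-box CACGCG (or CGCGTG) was in 8 of 39 genes, 20.5% against 10.5% of all genes. TGANNNNGC, the core of the elements that NRF1 and NRF2 bind, was in 22 of 39 genes, 56.4% against 45% of all genes. CCAAT was in 14 of 39 genes, 35.9% against 41.1% of all genes. The heat-shock element that HSF1 binds, searched as inverted repeats of GAA, was in 0 of 39 genes and in 0.662% of all genes. Psme3 holds CCAAT and the E-box, and Psma4 holds both E-box forms and TGANNNNGC.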

How the data were processed

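RNA-seq of 12 libraries (4 groups of 3) and c-MYC CUT&RUN of 2 genotypes were used. The authors deposited whole-number counts per gene and FPKM values of the same genes. HISAT2, Bowtie2, SEACR and DESeq2 are named in the submitters' processing notes, with the builds GRCm38 and mm10. No source used here names the counting program, its use of strand or tool versions. Peak lists give, by their names and column layout, SEACR stringent calls against IgG with the maximal coverage of each peak as the authors scaled it, and whether libraries were pooled is not stated. ERCC mix 1 went to siControl and mix 2 to siHsf1 RNA, per the labels, so spike-in scaling used 23 transcripts of 92 taken to be equal in both mixes. That list came from general knowledge of the mixes and not from a deposited file, and the measured ratios did not show the labelled difference between mixes. FPKM was used for levels between genes.

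From the counts, edgeR 4.0.16 (R 4.3.3, limma 3.58.1) fitted 4 group means over 12 libraries with the robust quasi-likelihood test (8 residual degrees of freedom), on 12187 of 41608 genes that passed filterByExpr at a minimum count of 10. P-values were adjusted over all tested genes by Benjamini-Hochberg, with a threshold of 0.05. Alternatives were DESeq2 1.42.0, no filter, the 6 libraries of 2 groups, all ERCC transcripts, a replicate block and leaving out each library. A gene start had a peak if one lay within 1000 bp (alternatives 5000 and 250 bp, peaks above the median height, and an overlap of 50% of the shorter peak). The fits were also run on simulated data. There the spike-in share was the same in every library, so its scatter within groups was not tested.

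Genes named are, per role, the 3 with the smallest p in the LacZ line with TMM scaling, the 6 with the smallest p in the interaction and in GCN5 against LacZ under siControl, the highest and lowest by FPKM, and those that failed the filter. Psmb6, Psmg1, Psme1, Psmd8 and others outside this rule were named after their values were seen. Members and lists were chosen with earlier results of these data known. The number of deposited per-sample columns left unmapped was 0. Some genes of the lists set beside the members are not reported here.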

Additional observations from a re-analysis of the deposited data

Results flagged for a closer look

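The response to siHsf1 differed between the GCN5 and LacZ lines at 15 members, by an interaction term with TMM scaling (edgeR's quasi-likelihood test, Benjamini-Hochberg adjusted p under 0.05). Values are log2 changes in the GCN5 line minus those in the LacZ line. Among lid genes they were 0.39 for Psmd3, 0.43 for Psmd11, 0.36 for Psmd12, 0.37 for Psmd6 and 0.28 for Psmd7. Among base genes they were 0.31 for Psmd2, 0.30 for Psmd1, 0.345 for Psmc1 and 0.33 for Psmc6. Alpha ring genes had 0.40 for Psma5, 0.296 for Psma1 and 0.29 for Psma4. Of the activators, Psme3 had 0.70, Psme4 had 0.33 and Psme1 had -0.44. With spike-in scaling edgeR and DESeq2 called 0 of them. The lines also differed in depth and in the Hsf1 transcript left after siHsf1, and the part of either in these differences was not tested.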

How the results depend on the processing

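With TMM scaling 25 members were called in siHsf1 against siControl LacZ libraries and 20 to 28 when 1 library was left out, and 19 of the 25 kept their call throughout. Without the filter on low counts all 25 kept their call and 4 further members were called. In the GCN5 line the count was 0, but 1 (Psme1) without the filter on low counts and in the fit of only its 6 libraries, and 0 to 1 with 1 library left out. For GCN5 against LacZ cells under siControl it was 4, but 2 in the fit of only the 6 libraries and 2 to 11 with 1 library left out (11 without siControl LacZ replicate 2). Under siHsf1 it was 27 (24 to 31), and for the interaction 15 (11 to 17).

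With spike-in scaling the LacZ count of 1 became 0 in the fit of only the 6 libraries and 0 to 23 with 1 library left out (23 without siHsf1 LacZ replicate 1). Under siControl the count of 0 became 1 (Psme2) with DESeq2 and 0 to 1 with 1 library left out, and under siHsf1 the count of 1 became 1 to 2. It remained 0 to 0 in the GCN5 line and for the interaction.

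Same-numbered libraries had correlations of -0.062 to 0.1 across genes, a measure that cannot register a change shared by all genes of a library. The spike-in share of replicates 1 to 3 was 0.177%, 0.356% and 0.248% in siHsf1 LacZ and 0.142%, 0.239% and 0.19% in siControl LacZ libraries. In the GCN5 line it was 0.229%, 0.232% and 0.286% with siHsf1 and 0.197%, 0.296% and 0.238% with siControl. Whether the numbers pair the libraries was not settled. A replicate block gave, with spike-in scaling, 28 calls in the LacZ line, 1 under siControl, 4 under siHsf1 and 1 for the interaction. With TMM scaling it gave 26 in the LacZ line and 18 for the interaction. The causes of these shifts were not tested, no called member changed direction under an alternative within either scaling (between scalings the 4 called under siControl did), and peak counts stayed within 1.5 times under every alternative run. Members with few counts, such as Psmg2 and Psmg4, had larger standard errors than the called subunits, and the limit set by depth was not tested.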
